A study of Mus musculus with 6 samples.

Results

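Kinesins are motor proteins that use ATP to walk along microtubules or to take their ends apart. Mitotic kinesins build the spindle, move chromosomes and complete cytokinesis, and many of them are made mainly in cells that are preparing to divide. Transport kinesins carry vesicles, organelles and other cargo in dividing and resting cells alike. The protein-coding genes named Kif or Kifc were taken by their names alone, which gave 41 genes of the 54532 in the table. They were sorted by the best known role of each protein into 13 mitotic, 15 transport and 6 cilium kinesins and 7 with other or mixed roles. Enough reads for a test were found for 35 of the 41, which were 12 mitotic, 14 transport, 4 cilium and 5 other genes.

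The cells were mouse cardiosphere-derived cells, a mixed population that grows out of pieces of heart, here from C57BL/6 mice and labelled as heart ventricle. The study grew them from epicardium, the outer layer of the heart, peeled off the ventricles of adult mice. The cells had been immortalized with a lentivirus carrying hTERT, the catalytic subunit of telomerase, selected with puromycin and grown to passage 30. Both groups shared this. The control group and the induced group held 3 RNA-seq libraries each, labelled as separate samples, and nothing states that they came from separate immortalized lines. The induced cells received 10 μM 5-azacytidine, an inhibitor of DNA methylation, for 3 days, followed by IMDM with 2% FBS for 4 weeks. The time and medium of the sequenced control cells are not given, and the study's methods describe a different induction medium and a shorter culture, so the drug, the serum level and the time in culture cannot be told apart.

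Each library held between 19041133 and 19823369 reads assigned to genes, so that 3 reads, taken here as the limit that a count of 0 allows, equal 0.151 to 0.158 CPM, the reads of a gene scaled to a common library size. The 5 markers of cardiosphere-derived cells were all measured, and their summed level was 747 to 757.6 CPM in the control libraries and 888.9 to 923.3 CPM in the induced ones. Thy1, Eng and Gata4 were called higher and Ly6a (log2 fold change -0.57, SE 0.09) and Tbx18 (-0.33, SE 0.07) were called lower. Of 8 cardiomyocyte markers 5 stayed under 1 CPM in every library. The sum of all 8 was 13.2 to 16.6 CPM in the control and 63.9 to 67.5 CPM in the induced libraries, most of it from Tnnt2. Tnnt2 (log2 fold change 2.15, SE 0.08) and Des (4.36, SE 0.33) were called higher, and Tnni3 was not called. Des had 14 reads over the control libraries and 283 over the induced ones. Leukocyte markers summed to 21.6 to 23.7 CPM in control and 13.4 to 15 CPM in induced cells, most of it from Csf1r, with Ptprc, Cd52, Tyrobp and Itgam at 0 reads. Csf1r fell and Fcer1g rose, the latter from 2 reads over the control libraries to 187 over the induced ones. The 5 endothelial markers summed to at most 0.943 CPM in any library.

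Every tested mitotic kinesin was lower in the induced cells, and most tested transport kinesins were higher. All 12 tested mitotic kinesins fell, by 1.66-fold to 5.17-fold, and 11 of them fell by at least 2-fold. The control and induced libraries did not overlap for any of these 12, which was also so for 68.6% of all tested genes. Of the 14 tested transport kinesins, 10 rose by 1.15-fold to 4.26-fold, 1 fell and 3 did not pass the test. These calls came from edgeR's quasi-likelihood test over 14246 genes, at a Benjamini-Hochberg adjusted p below 0.05. That test called 64.8% of all tested genes in either direction, 32.2% lower and 32.6% higher, 7.83% lower by at least 2-fold and 9.29% higher by at least 2-fold, so being called was common among all genes. The median log2 fold change was -2.03 for the mitotic kinesins, 0.31 for the transport kinesins, and -0.01 for all tested genes. All 35 tested kinesins together had 16 called lower, 13 called higher and 6 not called. In RNA from whole cultures, fewer dividing cells and less mitotic transcript per dividing cell cannot be told apart.

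The change was also visible in the makeup of all kinesin transcripts. Reads were divided by gene length to give reads per kilobase at a common library size (RPKM), the scale on which levels of different genes are compared here. The summed RPKM of the mitotic kinesins was 83.1, 87.2 and 81.0 in the control libraries and 21.0, 20.6 and 21.1 in the induced libraries. The summed RPKM of the transport kinesins was 139.6, 138.9 and 139.7 in the control and 170.7, 173.9 and 168.5 in the induced libraries. Neither pair of groups overlapped, and the sums moved in opposite directions. As a share of all kinesin RPKM, the mitotic kinesins held 33.6 ± 0.886% (SD, n = 3) in control cells and 9.72 ± 0.269% in induced cells. The transport kinesins held 56.0 ± 0.775% and 79.6 ± 0.304%. The cilium kinesins held 2.33 ± 0.184% and 2.15 ± 0.0571%, and the others 8.06 ± 0.0445% and 8.54 ± 0.478%, which are differences no larger than the sum of the SDs of the groups. These are shares of a total that was 249.0 ± 2.70 RPKM in control and 214.9 ± 3.52 RPKM in induced cells. The cilium sum itself was lower, without overlap, at 6.18, 5.36 and 5.89 RPKM in control and 4.55, 4.60 and 4.69 RPKM in induced libraries. It leaves out Kif3a and Kif3b, which were counted as transport kinesins. The sum of the others was 20.07 ± 0.320 and 18.35 ± 1.30 RPKM, with overlapping groups. For each 100 RPKM of transport kinesins there were 60.1 ± 2.42 RPKM of mitotic kinesins in control cells and 12.2 ± 0.328 in induced cells.

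**Figure D1:**
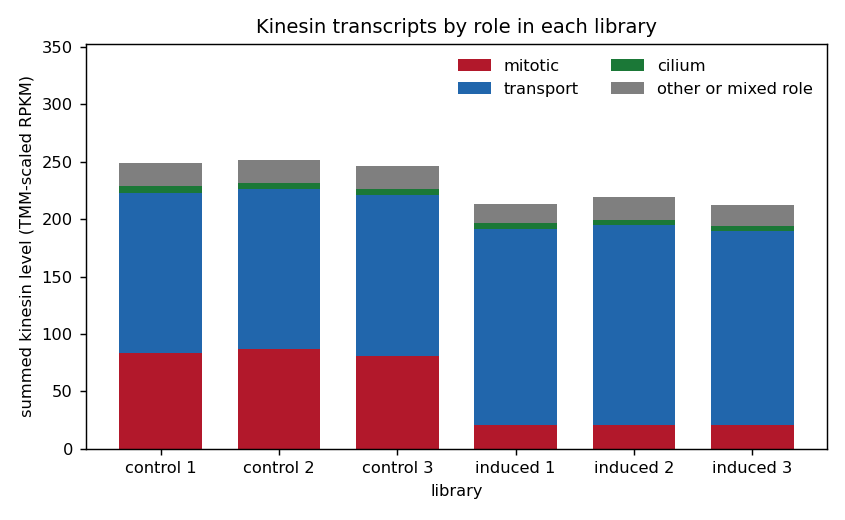
Summed level of kinesins by role in each library, in RPKM, as stacked bars for the 3 control and 3 induced libraries, with the mitotic kinesins at the base. The mitotic sum lies between 81.0 and 87.2 in control and between 20.6 and 21.1 in induced libraries, while the transport sum lies between 138.9 and 139.7 and between 168.5 and 173.9.

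The mitotic kinesins were examined first by the step of division in which they act. Kinesins of the central spindle and cytokinesis showed some of the largest falls. Kif20a (MKLP2) brings the chromosomal passenger complex to the central spindle, and it stood at 69.4, 70.6 and 63.9 CPM in the control libraries and at 14.2, 12.1 and 13.1 CPM in the induced libraries. Its level fell 5.17-fold, with a log2 fold change of -2.37 (SE 0.07, Benjamini-Hochberg adjusted p = 3.11e-15 in edgeR's quasi-likelihood test), the largest fall among the kinesins. Exons of Kif20a lie over those of the opposite gene Cdc23 along 29.3% of its exon length, and Cdc23 itself had a log2 fold change of -0.09 (SE 0.06) and was not called. Kif23 (MKLP1, chr9:61915905-61946774), the motor of the centralspindlin complex that bundles midzone microtubules, gave 27.4, 30.2 and 28.4 CPM in control and 6.16, 6.15 and 6.24 CPM in induced libraries. The induced values were nearly identical, and the fall was 4.63-fold (log2 fold change -2.21, SE 0.09). Kif14 (chr1:136466343-136531511), which works with citron kinase in the last cut between daughter cells, had 20, 18.1 and 18.4 CPM in control and 3.83, 4.16 and 4.45 CPM in induced libraries, a 4.54-fold fall. Kif20b (chr19:34922361-34975745), also needed to finish cytokinesis, had 19.9, 24.3 and 24.6 CPM in control and 9.62, 9.57 and 7.55 CPM in induced libraries. Its fall, 2.57-fold with a log2 fold change of -1.36 (SE 0.11, adjusted p = 4.57e-09 in edgeR's test), was the smallest of the kinesin-6 family.

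Kinesins that build the bipolar spindle fell as well. Kif11 (Eg5, chr19:37376403-37421859), the kinesin-5 motor that pushes spindle poles apart, was measured at 39.5, 51.2 and 43.7 CPM in the control and 11.6, 15 and 12.7 CPM in the induced libraries. Replicate 2 was the highest in both groups, and the groups did not overlap: the lowest control value remained above the highest induced value. The fall of Kif11 was 3.41-fold (log2 fold change -1.77, SE 0.10, adjusted p = 3.01e-11 in edgeR's quasi-likelihood test). Kif15 (chr9:122951046-123018733), a kinesin-12 that can keep the spindle bipolar when Kif11 is blocked, stood at 12, 11.8 and 12.3 CPM in control and 3.08, 2.89 and 2.99 CPM in induced libraries. It fell 4.02-fold (log2 fold change -2.01, SE 0.13). Kifc1 (HSET, chr17:33875666-33890661) is a kinesin-14 that walks to the minus end and draws spindle poles together, and it had 55.9, 56.6 and 54.6 CPM in control and 15.1, 14.1 and 16.8 CPM in induced libraries. The fall was 3.63-fold (log2 fold change -1.86, SE 0.07). Kifc1 shares 17% of its 100-base transcript words with its paralogue Kifc5b, so some reads cannot be assigned to either gene with certainty, and with the reads of both genes added together the log2 fold change was -1.77. Plus-end and minus-end motors of the spindle thus fell side by side.

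Kinesins that act on chromosomes and on microtubule ends made up the rest of the mitotic group. Kif2c (MCAK, chr4:117159639-117182639), a kinesin-13 that takes microtubules apart at kinetochores and corrects wrong attachments, had 37.5, 38.2 and 34.7 CPM in the control and 7.07, 7.57 and 7.65 CPM in the induced libraries. It fell 4.95-fold (log2 fold change -2.31, SE 0.09, adjusted p = 5.34e-14 in edgeR's quasi-likelihood test), next in size to Kif20a. Kif22 (Kid, chr7:127027729-127042471), a chromosome-arm motor that pushes chromosomes away from the poles, was at 49.8, 51.8 and 48.9 CPM in control and 13.6, 10.9 and 11.8 CPM in induced libraries, a 4.14-fold fall. Kif4 (chrX:100625737-100727214), a chromokinesin of chromosome condensation and of the midzone, was at 30.3, 29.5 and 24.9 CPM and at 6.22, 6.68 and 6.55 CPM, a 4.35-fold fall. An opposite gene, Pdzd11, overlaps 15.1% of the exon length of Kif4 and was not called, with a log2 fold change of -0.10.

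The kinesin-8 motors, which dampen chromosome movements and shorten microtubules at their plus ends, differed from each other. Kif18b (chr11:102905529-102925124) had 20.9, 20.8 and 21.1 CPM in control and 5.69, 6.26 and 5.87 CPM in induced libraries, and fell 3.53-fold (log2 fold change -1.82, SE 0.10). Kif18a (chr2:109280738-109341747), which limits chromosome swings at metaphase, had 7.75, 6.73 and 7.56 CPM in control and 4.41, 4.10 and 4.77 CPM in induced libraries. The groups of Kif18a did not overlap, but its fall of 1.66-fold (log2 fold change -0.73, SE 0.14, adjusted p = 0.000175 in edgeR's test) was the smallest of the 12 and the only fall among them under 2-fold. Per kilobase Kif18a was also the lowest of the tested mitotic kinesins in the control cells, at 0.747 ± 0.0556 RPKM, while Kif20a was the highest at 17.9 ± 0.938 RPKM, followed by Kifc1 at 16.4 ± 0.309 RPKM. The remaining member, Kif2b, a kinesin-13 of the spindle, had 0 reads in all 6 libraries.

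**Figure D2:**
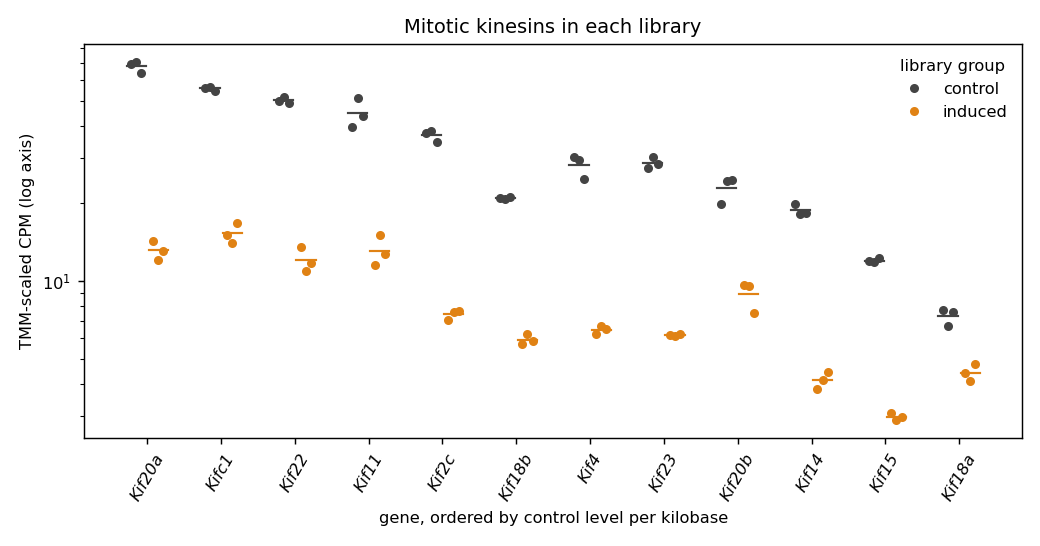
Level of each tested mitotic kinesin in each library, in CPM on a log axis, for the 3 control and 3 induced libraries, with a short line at each mean. The control and induced points are apart for all 12 genes, with the narrowest gap at Kif18a.

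The proteins that mitotic kinesins work with were read in the same fit from a list of 15 spindle and cytokinesis proteins, of which Cenpe is itself a kinesin under another name. All 15 were tested and all 15 were lower, 14 of them by at least 2-fold, with a median log2 fold change of -1.78. Racgap1, the partner of Kif23 in centralspindlin, had a log2 fold change of -2.27, Plk1, the kinase that docks on Kif20a, of -2.24, Aurkb, the passenger complex kinase, of -1.78, and Prc1, the midzone bundler that recruits Kif4, of -1.70. Cit, the citron kinase that works with Kif14, had -1.95, and Tpx2, which binds Kif11 and Kif15, had -1.76. Numa1, a spindle pole protein that is also found in the interphase nucleus, fell by only 0.20 (SE 0.05) on the log2 scale.

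The promoters of the kinesins were then read for a sequence known from genes of late cell division. The cell cycle genes homology region (CHR) is a short element near the start of many such genes, with the core letters TTTGAA, and it is bound by the MuvB complexes. CCAAT boxes, bound by NF-Y, often stand upstream of it. RefSeq promoter windows of GRCm38.p6, running from 250 bases before to 50 bases after each annotated start, were found for 32 of the 41 kinesins as 36 windows, and both strands were searched for exact letters. The motifs were chosen after the levels were known, so the counts are a description. The motifs can share a base at their ends, but no matches overlapped in the kinesin windows.

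The CHR core was found in 10 of the 12 windows of mitotic kinesins, and in 1 of 12 windows of transport kinesins, 1 of 6 of cilium kinesins and 1 of 6 of the others. It was present in 17.9% of all 32851 windows and in 11.8% of the windows of tested genes. The windows of genes called at least 2-fold lower held it in 18.0% of cases. In 8 of the 12 mitotic windows the match began within 20 bases of the start, against 1.36% of the windows of tested genes, 4.62% of those of genes called at least 2-fold lower and 0 of the 12 transport windows. The limit of 20 bases equals the position of the farthest of these 8 matches, in Kif4. Positions are counted from the RefSeq starts, and the count of 8 rests on these, since the gene bounds of the deposited table differ for some genes. The whole Kif4 window, from chrX:100625815, lies inside the bounds of Kif4, which begin at 100625737. These 8 kinesins are themselves among the genes called at least 2-fold lower. The 2 mitotic kinesins with a window and no match were Kif18a and Kif2b, and Kif20a, with the largest fall, had no window. CCAAT was found in 8 of the 12 mitotic windows, 4 of the 12 transport windows and 37.7% of the windows of tested genes, and both motifs in 7 of the 12 mitotic windows and 4.77% of those of tested genes. Kif26b, which rose, also held a CHR core, beginning at position -9 from its start, and Kif27, which was not tested, held CHR cores as well. In Kif1a, which was not called, a CHR core lay in the window of a start well inside the gene. The Kif1a window at the outer end of the gene held none. Among the 10 mitotic windows with a match, those of Kif2c and Kif14 also belong to starts inside the genes, and these genes had no other window.

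The 30 bases around the match nearest the start in each of the 10 mitotic kinesins are shown because the letters recur in genes of different families on 8 chromosomes. They are RefSeq sequence of GRCm38.p6, 5′ to 3′ along the gene's own strand, with capitals marking the CHR core, read as TTTGAA on that strand or as TTCAAA where the match lies on the opposite strand.
Kif11, chr19:37376351-37376380, plus strand: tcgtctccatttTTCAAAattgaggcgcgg
Kif15, chr9:122951050-122951079, plus strand: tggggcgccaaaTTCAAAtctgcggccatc
Kif22, chr7:127042420-127042449, minus strand: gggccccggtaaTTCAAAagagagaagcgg
Kif20b, chr19:34922353-34922382, plus strand: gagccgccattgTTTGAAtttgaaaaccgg
Kif23, chr9:61946780-61946809, minus strand: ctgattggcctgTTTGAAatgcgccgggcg
Kifc1, chr17:33890615-33890644, minus strand: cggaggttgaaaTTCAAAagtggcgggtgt
Kif18b, chr11:102925104-102925133, minus strand: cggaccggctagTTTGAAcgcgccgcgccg
Kif4, chrX:100626072-100626101, plus strand: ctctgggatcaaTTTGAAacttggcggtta
Kif2c, chr4:117178858-117178887, minus strand: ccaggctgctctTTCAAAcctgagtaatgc
Kif14, chr1:136467608-136467637, plus strand: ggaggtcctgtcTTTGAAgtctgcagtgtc

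In Kif11, Kif15 and Kif22 the match lay on the opposite strand, beginning at positions -19, -19 and -17 counted from the start. In Kif20b, Kif23, Kifc1, Kif18b and Kif4 it began at base 8, 3, 2, 4 and 20 after the start, and in Kif2c and Kif14 it lay farther upstream, at -103 and -228. The RefSeq starts of Kif2c and Kif14 lie inside the genes as the deposited table bounds them, so these stretches do too. The stretches shown for Kif4, Kif15, Kif22 and Kifc1 also lie inside the bounds of their genes, but closer to the edge. Kif15 and Kif22 held another match farther upstream, at positions -234 and -215. Kif20b held a second copy directly after the first, visible in lower case in its line. Next, the whole 250 bases upstream of the start are shown for Kif11, with a CCAAT box (read as ATTGG) and a CHR core close together, for Kif2c, with a distant CHR core alone, and for Kif1c, the transport kinesin with the highest level, which had neither. Capitals mark both motifs.
Kif11, chr19:37376132-37376381, plus strand: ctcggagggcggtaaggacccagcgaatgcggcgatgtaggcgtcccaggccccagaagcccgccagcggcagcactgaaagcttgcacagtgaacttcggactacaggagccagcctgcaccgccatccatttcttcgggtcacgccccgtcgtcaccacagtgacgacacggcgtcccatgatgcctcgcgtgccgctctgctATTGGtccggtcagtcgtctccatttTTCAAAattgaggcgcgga
Kif2c, chr4:117178773-117179022, minus strand: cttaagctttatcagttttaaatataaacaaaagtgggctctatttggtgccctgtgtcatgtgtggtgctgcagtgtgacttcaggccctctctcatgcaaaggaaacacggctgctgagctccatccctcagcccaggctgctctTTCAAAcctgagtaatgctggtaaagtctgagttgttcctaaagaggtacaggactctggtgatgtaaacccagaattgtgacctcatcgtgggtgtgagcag
Kif1c, chr11:70700298-70700547, plus strand: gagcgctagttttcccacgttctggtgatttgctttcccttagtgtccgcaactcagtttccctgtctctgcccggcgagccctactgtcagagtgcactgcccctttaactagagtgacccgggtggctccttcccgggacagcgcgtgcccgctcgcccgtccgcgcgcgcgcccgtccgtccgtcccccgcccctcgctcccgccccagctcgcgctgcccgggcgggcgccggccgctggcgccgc

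**Figure D3:**
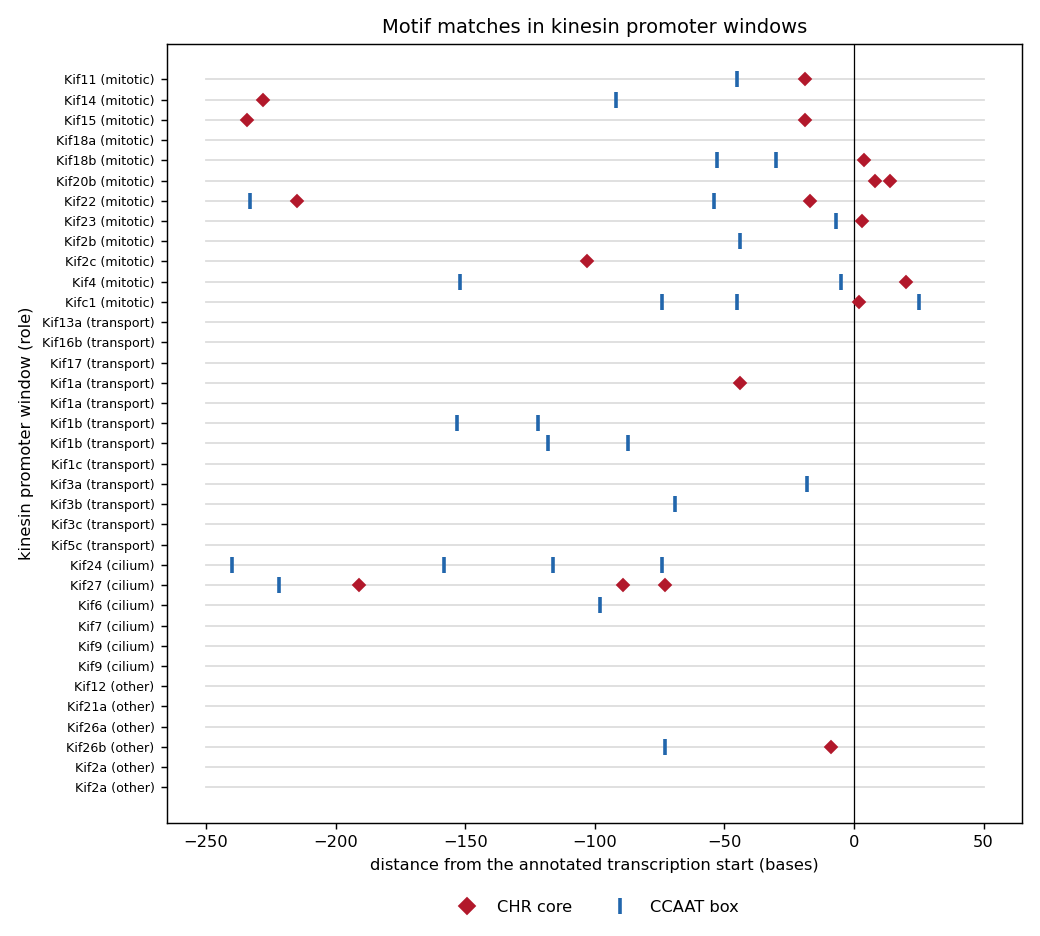
Position of CHR core and CCAAT matches in the promoter windows of the kinesins, as distance in bases from the annotated start, with one row per window. CHR matches of the mitotic kinesins gather near the start in 8 of 12 windows, and the transport windows hold 1 CHR match.

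Among the transport kinesins, which carry cargo along microtubules, the pair with the highest levels per kilobase, Kif1c and Kif5b, rose by less than 2-fold, and Kif5c and Kif13b rose by more. Kif1c (chr11:70700548-70731964), a kinesin-3 that moves integrin-bearing and secretory vesicles, was the most abundant kinesin per kilobase in both groups, at 60.8 ± 0.897 RPKM in control and 75.4 ± 3.55 RPKM in induced cells. Its levels were 436.1, 449.1 and 441.7 CPM in the control and 573.7, 522 and 549.2 CPM in the induced libraries. All induced values were above all control values, and the rise was 1.24-fold (log2 fold change 0.31, SE 0.05, adjusted p = 9.24e-06 in edgeR's quasi-likelihood test). Kif5b, the ubiquitous kinesin-1 heavy chain that moves mitochondria and many vesicles, had 136.4, 136.6 and 135.5 CPM in control and 168.8, 205 and 177.8 CPM in induced libraries. It rose 1.35-fold (log2 fold change 0.43, SE 0.06), and at 18.4 ± 0.0782 RPKM in control cells it was next to Kif1c among the transport kinesins. In control cells Kif5b and the mitotic Kif20a (17.9 ± 0.938 RPKM) did not differ beyond their spread, whereas in induced cells Kif5b stood at 24.9 ± 2.55 RPKM and Kif20a at 3.46 ± 0.283 RPKM.

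The largest rises among the transport kinesins were those of Kif5c and Kif13b. Kif5c (chr2:49619298-49774778), a kinesin-1 heavy chain best known from neurons, had only 19, 8 and 16 reads in the control libraries and 53, 58 and 66 reads in the induced libraries. This corresponds to 0.724 ± 0.286 and 3.11 ± 0.325 CPM, a rise of 4.26-fold (log2 fold change 2.09, SE 0.29, adjusted p = 3.83e-06 in edgeR's test). With limma the log2 fold change of Kif5c was 1.43 on log2(FPKM + 0.1) and 0.38 on log2(FPKM + 1), a scale that understates changes of low genes, and it was called in both. The 8 neuron markers had a sum of 92.9 to 97.2 CPM in control and 33.3 to 38.2 CPM in induced libraries, most of it from Tubb3. Of the 3 that were tested, Tubb3 and Syn1 fell and Map2 rose (log2 fold change 1.03, SE 0.24), while the other 5 were under 1 CPM in every library, with Snap25 at 0 reads, and their part in the rise of Kif5c was not tested. Even after the rise, Kif5c held 1.72 ± 0.224% of kinesin-1 RPKM, and Kif5b 97.5 ± 0.470%. Kif13b (chr14:64647265-64809617), a kinesin-3 also called GAKIN that carries Dlg1 and phosphoinositide-bearing vesicles, had 43.5, 43.9 and 44.1 CPM in control and 86.5, 92.2 and 88.9 CPM in induced libraries. The spread within each group was small, and the rise was 2.03-fold (log2 fold change 1.02, SE 0.05, adjusted p = 5.78e-12 in edgeR's test).

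The other transport kinesins that rose did so by less than 2-fold. Kif13a, which moves endosomes and mannose 6-phosphate receptors, was measured at 35.2 ± 1.70 CPM in control and at 48.8 ± 6.28 CPM after induction (log2 fold change 0.47, SE 0.08). Kif16b, an early endosome motor, went from 28.8 ± 2.10 to 39.4 ± 2.96 CPM (0.45, SE 0.07), and Kif1b, which carries mitochondria or synaptic vesicle precursors depending on the isoform, from 111.3 ± 2.52 to 136.9 ± 10.7 CPM (0.30, SE 0.06). The values count whole genes, so isoforms of Kif1b were not separated. The minus-end motors Kifc3, of adherens junctions and apical transport, and Kifc2, known from dendrites, rose by 0.30 (SE 0.06) and 0.69 (SE 0.15) on the log2 scale. In the kinesin-2 family, Kif3b, part of the heterotrimeric motor of intraflagellar transport, had 57.6, 54.3 and 58.1 CPM in control and 62.1, 70.3 and 62.7 CPM in induced libraries (log2 fold change 0.20, SE 0.06, adjusted p = 0.0071 in edgeR's test), and without control replicate 2 it was not called (adjusted p = 0.0513).

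Not every transport kinesin rose. Kif3a, the usual partner of Kif3b, had 27.5 ± 1.44 and 25.3 ± 1.92 CPM, and the difference did not pass the test (log2 fold change -0.12, SE 0.08, adjusted p = 0.173 in edgeR's quasi-likelihood test). Kif3c, another partner in kinesin-2, had 41.4, 44.6 and 42.6 CPM in control and 38.4, 39.2 and 38.9 CPM in induced libraries. It was the 1 transport kinesin called lower (log2 fold change -0.14, SE 0.06, adjusted p = 0.0405 in edgeR's test), and this call was lost under 12 of 16 alternatives, with adjusted p from 0.0136 to 0.170. The opposite genes 1110002L01Rik and Gm48512 jointly overlap 40.7% of the exon length of Kif3c. 1110002L01Rik fell by 0.53 on the log2 scale, and Gm48512 had 0 reads in every library. Kif1a, a kinesin-3 known for carrying synaptic vesicle precursors, was well detected in these cells at 90.5, 86.8 and 91.5 CPM in control and 87.1, 86.9 and 84.6 CPM in induced libraries, with overlapping groups (log2 fold change -0.06, SE 0.05, adjusted p = 0.359 in edgeR's test). Kif5a, a neuronal kinesin-1, had 1.44 ± 0.513 and 1.32 ± 0.404 CPM and was not called (log2 fold change -0.12, SE 0.33). Kif17, a homodimeric kinesin-2 of dendrites and cilia, had 14 reads in the control libraries together and 9 in the induced libraries and was not tested.

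**Figure D4:**
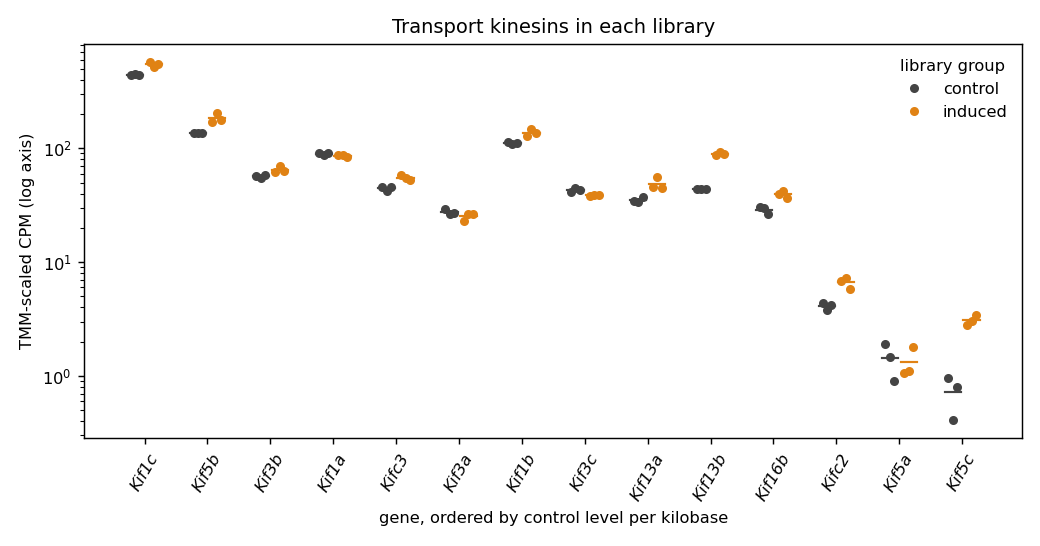
Level of each tested transport kinesin in each library, in CPM on a log axis, for the 3 control and 3 induced libraries, with a short line at each mean. Kif5c and Kif13b have the widest gaps between groups, and the points of Kif1a and Kif5a overlap.

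Transport kinesins depend on light chains and cargo adaptors, and share tracks with cytoplasmic dynein, which walks the other way. Of 20 kinesin light chain and adaptor genes in the table, 19 were tested, of which 11 rose, 1 fell and 7 were not called, with a median log2 fold change of 0.18. Klc1, the main kinesin-1 light chain, rose by 0.18 (SE 0.05) on the log2 scale, the mitochondrial adaptors Trak1 and Rhot1 by 0.35 and 0.36, the lysosomal adaptor Arl8a by 0.52 and Fez2 by 0.56, while Klc3 fell by 0.40 (SE 0.08). Of 30 dynein and dynactin genes 28 were tested, and 15 rose, 6 fell and 7 were not called, with a median of 0.14. The heavy chain Dync1h1 rose by 0.45 and the adaptor Bicd2 by 0.62, while the light chain Dynll1 fell by 0.58. The copies of Dynlt1 are near-identical, so the falls of Dynlt1a (log2 fold change -1.63, SE 0.28) and Dynlt1f (-0.95, SE 0.12) are uncertain. Dynlt3, another light chain, rose by 0.80 on the log2 scale. In both lists the share called higher was above the 32.6% of all tested genes.

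The kinesins sorted into the cilium group were weakly expressed apart from Kif7. This group leaves out Kif3a and Kif3b of the intraflagellar transport motor, which were sorted with the transport kinesins. Their control levels, 27.5 and 56.7 CPM, were above the 19.9 CPM of Kif7. Kif7 (chr7:79698098-79715720), a kinesin-4 that organizes the tip of the primary cilium in Hedgehog signalling, had 21.3, 18.3 and 20.1 CPM in control and 12.3, 11.4 and 12.8 CPM in induced libraries. The groups did not overlap and Kif7 fell 1.64-fold (log2 fold change -0.71, SE 0.09, adjusted p = 2.11e-06 in edgeR's quasi-likelihood test). Ticrr and 9330171B17Rik, on the opposite strand, together overlap 20.3% of the exon length of Kif7. Ticrr, a gene of DNA replication, ends at chr7:79698148, just inside the bounds of Kif7. It fell by 1.74 on the log2 scale, and its part in the fall of Kif7 was not tested. 9330171B17Rik had 1 read in the control libraries together and 0 in the induced libraries. Kif9, a motor of motile cilia and flagella, rose from 2.41 ± 0.183 to 4.37 ± 0.747 CPM (log2 fold change 0.86, SE 0.19). Kif24, a kinesin-13 that trims microtubules at the mother centriole, had 3.50, 2.29 and 3.36 CPM in control and 5.00, 4.31 and 3.93 CPM in induced libraries. It was called higher (log2 fold change 0.53, SE 0.19, adjusted p = 0.0219 in edgeR's test), but not without control replicate 2 (adjusted p = 0.124) or induced replicate 1 (adjusted p = 0.0934). Kif6, a kinesin-9, was not called (log2 fold change -0.31, SE 0.23). The 6 markers of multiciliated cells summed to 1.78 to 2.74 CPM in control and 2.50 to 3.42 CPM in induced libraries, with Dnah5 at 0 reads.

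Kinesins with other or mixed roles went in both directions. Kif26b (chr1:178529125-178939200), a kinesin-11 without ATPase activity that takes part in cell adhesion and Wnt5a-Ror signalling, had 43.2, 37.6 and 39.0 CPM in control and 83.8, 89.9 and 84.4 CPM in induced libraries. It rose 2.15-fold (log2 fold change 1.11, SE 0.06, adjusted p = 1.35e-11 in edgeR's quasi-likelihood test), next to Kif5c in size. Its relative Kif26a stood at 1.23 ± 0.412 and 0.790 ± 0.228 CPM and was not called (log2 fold change -0.63, SE 0.35, adjusted p = 0.126 in edgeR's test). Kif2a, a kinesin-13 that works both at spindle poles and in pruning microtubules of resting cells, had 40.0, 40.7 and 40.9 CPM in control and 25.0, 29.0 and 28.4 CPM in induced libraries, and fell by 0.56 (SE 0.07) on the log2 scale. A gene overlapping 19.2% of the exon length of Kif2a, Dimt1, also fell by 0.56 on the log2 scale, and its part in the fall of Kif2a was not tested. Kif21a (chr15:90933276-91049948), a kinesin-4 that restrains microtubule growth at the cell edge, had 55.8, 61.0 and 56.4 CPM in control and 36.4, 45.4 and 37.5 CPM in induced libraries, a 1.45-fold fall. The related Kif21b did not pass the test, with 23.2 ± 1.44 and 23.5 ± 0.958 CPM (log2 fold change 0.02, SE 0.08).

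**Figure D5:**
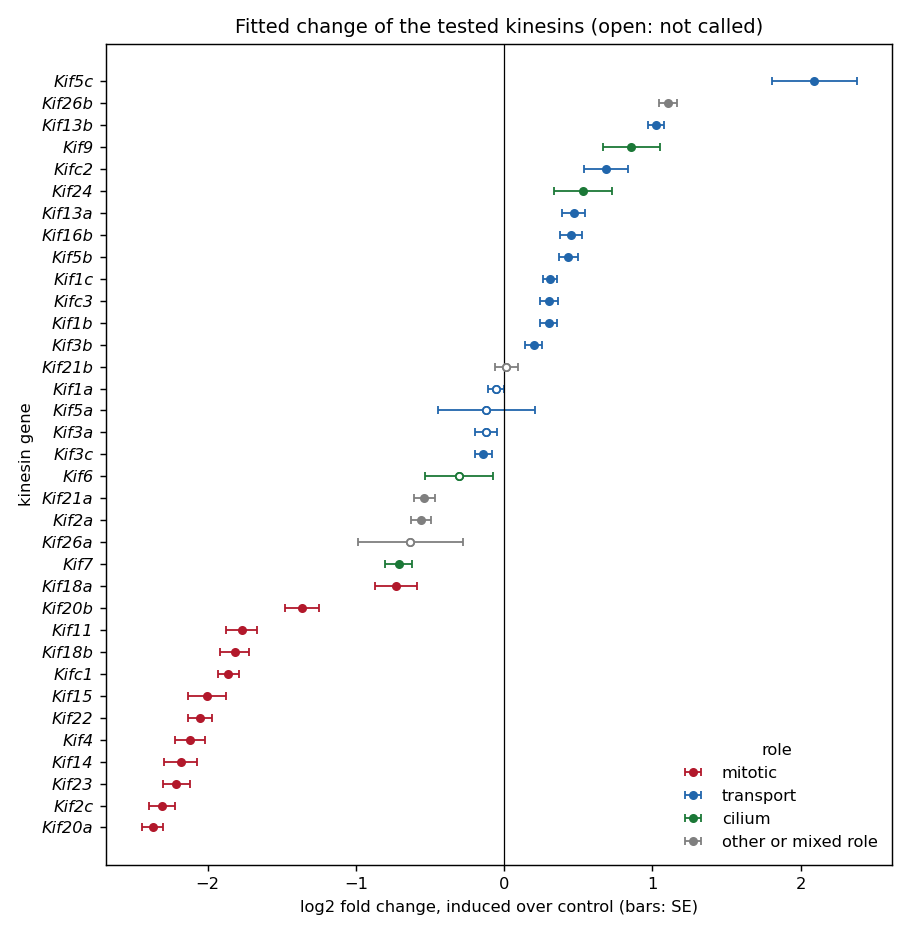
Log2 fold change (induced over control) of each tested kinesin with its standard error as bars, ordered by fold change and coloured by role, with open points for genes that were not called. The mitotic kinesins lie between -2.37 and -0.73, and the transport kinesins between -0.14 and 2.09.

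The makeup of several families that hold both mitotic and other members changed. In the kinesin-14 family, Kifc1 held 63.3 ± 1.46% of the family's RPKM in control and 27.2 ± 2.73% in induced cells, and the transport motor Kifc3 32.7 ± 1.22% and 62.7 ± 1.84%. In kinesin-13, Kif2c held 55.6 ± 1.58% and 26.0 ± 0.472%, and Kif2a 41.9 ± 1.29% and 65.5 ± 1.74%. In kinesin-4, the mitotic Kif4 held 25.1 ± 1.72% and 9.83 ± 0.331%. The leading member therefore changed in kinesin-14 and kinesin-13, by differences far larger than the SD over libraries. These are shares of family totals that also changed. In mean RPKM, Kifc1 went from 16.4 in control to 4.50 in induced cells, and Kifc3 from 8.44 to 10.4. Kif2c went from 8.43 to 1.70, and Kif2a, whose share rose, was itself lower, from 6.34 to 4.30. Within the wholly mitotic kinesin-6 family the leading gene remained Kif20a, at 72.1 ± 2.05% and 62.6 ± 2.67%. In kinesin-3, Kif1c held 68.0 ± 0.710% and 68.5 ± 2.14%, so its share differed by less than the SD.

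The remaining members could not be tested. Kif19a, a kinesin-8 that shortens cilia, had 6, 8 and 12 reads in control and 0, 1 and 4 reads in induced libraries. With no filter on low counts it was called lower (log2 fold change -2.23, SE 0.79, adjusted p = 0.0149 in edgeR's quasi-likelihood test). Kif27, a relative of Kif7, had 16 reads in control and 23 in induced libraries in total, Kif28 had 4 in each, and Kif12 had 0 reads in all 6 libraries.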

How the data were processed

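Messenger RNA was sequenced from 3 control and 3 induced samples of immortalized mouse cardiosphere-derived cells, grouped by sample title. The authors deposited raw counts of reads per gene and FPKM values made from them. The submitters' processing notes name HISAT2 2.0.5, featureCounts 1.5.0-p3, DESeq2 1.16.1 and mm10. The strand setting of the counting is not given in the sources used here, so reads of overlapping genes on opposite strands cannot be told apart. The authors' own fold changes and p-values, and their enrichment tables, were not used.

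The counts went into edgeR 4.0.16 under R 4.3.3. Its filterByExpr (minimum count 10, minimum total 15) kept 14246 genes holding 99.9% of reads, TMM set the library scaling, and the induced group was compared with control by the quasi-likelihood test on group alone, with Benjamini-Hochberg adjustment over all 14246 genes and a threshold of 0.05. CPM and RPKM are TMM-scaled values, and RPKM divides by the gene length in the deposited table. Gene coordinates are those of the same table. The biological coefficient of variation was 5.82%. The p-values measure the spread between these libraries, and the limit of 3 reads covers counting error only. DESeq2 1.42.0, limma 3.58.1 on log2(FPKM + 0.1) and log2(FPKM + 1), other scalings and filters, each library left out and a block on replicate number were tried as alternatives. The procedure was tried on simulated counts in which a small part of the genes was changed, equally often up and down. That setting differs from these data, where 64.8% of tested genes were called, so it does not measure the error of these calls.

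The kinesins, their roles, the partner lists and the marker lists were chosen with earlier results of these data known. All 41 kinesins were accounted for. Values in every library were given for kinesins that changed at least 2-fold and for the most abundant one of each role, and those of other kinesins and the named partners were chosen after their values were seen.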

Additional observations from a re-analysis of the deposited data

How the results depend on the processing

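All 12 tested mitotic kinesins were called lower under every alternative, with the kinesins called lower numbering 15 to 16 and those called higher 11 to 13, while genes called in all ranged from 7783 to 9765. Of 560 values (35 kinesins under 16 alternatives), 537 kept their direction and their side of the threshold and 4 kinesins crossed it. The transport kinesin called lower, Kif3c, numbered 0 rather than 1 under DESeq2, both limma fits, median-ratio size factors, no filter, the replicate block and an adjusted p below 0.01, and 0 to 1 with each library left out. The mitotic median log2 fold change was -1.88 with limma on log2(FPKM + 0.1) and -1.41 on log2(FPKM + 1), where the larger pseudocount pulls low values together. The transport median was 0.27 with library totals alone, a scaling that moved the median of all genes to -0.04, and 0.30 to 0.33 with each library left out. With Kifc1 and Kifc5b pooled, chosen after seeing the data, the mitotic share was 34.5% in control and 10.3% in induced cells. Kif21b, not called, had a log2 fold change of -0.022 with library totals alone and of -0.013 to 0.072 with each library left out. Kif5a, also not called, had -0.39 to 0.15 with each library left out. Kif26a was called without control replicate 1 (adjusted p = 0.0495). The replicate block gave 15 kinesins lower and 13 higher, and medians of -2.03 (mitotic) and 0.30 (transport). Same-numbered libraries did not deviate together (correlations -0.00, -0.02 and 0.03), so the number was not taken as a pairing. Members with under about 10 reads per library could not be tested at this depth.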

Other observations

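Some motors of the kinesin superfamily carry other names and were left out by the name rule. Cenpe, counted above among the spindle and cytokinesis proteins and the kinesin-7 that brings chromosomes to the spindle equator, had 666, 634 and 677 reads in the control libraries and 144, 181 and 133 in the induced libraries. It was lower in 3 of 3 induced libraries than in any control library and fell 4.14-fold (log2 fold change -2.05, SE 0.10, Benjamini-Hochberg adjusted p = 2.15e-12 in edgeR's quasi-likelihood test). Stard9, a large kinesin-3 type protein of the centrosome, had 439, 417 and 445 reads in control and 384, 488 and 411 in induced libraries, with overlapping groups (log2 fold change 0.04, SE 0.09). Kifc5b, the paralogue of Kifc1, had 240, 227 and 219 reads in control and 70, 87 and 90 in induced libraries (log2 fold change -1.41, SE 0.13).

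The CHR core was also counted in the promoter windows of the partner lists, after the levels were known. It was found in 9 of 14 windows of the spindle and cytokinesis partners, 2 of 24 windows of kinesin light chains and adaptors and 1 of 26 windows of dynein and dynactin genes. In 5 of the 14 partner windows the match began within 20 bases of the start, against 0 of 24 and 0 of 26 in the other lists. These counts are a description, and no test was made of them.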
